A study of Mus musculus with 7 samples.

Results

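The genes described here encode the defences of cells against reactive oxygen species: the FoxO transcription factors, superoxide and peroxide enzymes, the glutathione and thioredoxin systems, glutathione transferases, the NRF2 regulators, a pair of selenoproteins and ferritin. They are a list of 42 genes set by name, out of 53458 genes with a transcript in the tables, and all 42 were abundant enough to be tested among 20314 genes. Their transcripts were measured by RNA sequencing of sorted long-term haematopoietic stem cells (LT-HSCs), which renew the blood throughout life, from the marrow of aged C57/BL6 mice. The 3 Srp72+/- libraries came from mice heterozygous for Srp72, which encodes a subunit of the signal recognition particle, and the 4 WT libraries came from Srp72+/+ mice. The labels name no treatment other than the sort, and they give neither an exact age nor the altered part of Srp72. There were as many libraries as mice in each group, and whether RNA of several mice was mixed is not stated. The sort kept cells positive for Sca1, cKit and CD150 and removed cells with Flt3, CD48 or the mature markers CD3, B220, Mac1, Gr1 and Ter119.

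Superoxide, a by-product of respiration and the product of NADPH oxidases, is converted to hydrogen peroxide by superoxide dismutases. Peroxide is then removed by catalase, by glutathione peroxidases and by peroxiredoxins, which draw their electrons from glutathione or thioredoxin and so from NADPH. In mice, stem cells that lack FoxO factors accumulate reactive oxygen species and lose quiescence, while neutrophils make superoxide in bulk to kill microbes and carry a glutathione cycle of their own. NRF2, held down by KEAP1, switches on many of these genes through antioxidant response elements.

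Promoter motifs of both regulators were looked for, because several of the genes below are textbook targets of FoxO or NRF2. The windows run from 250 bases before to 50 bases after the annotated start (RefSeq, GRCm38.p6), and 38 of the 42 genes matched a window. Foxo4, Gsr, Gclc and Prdx6 had no window and were not searched. The forkhead core GTAAACA, read on both strands, was found in the windows of Txnip and Selenop, 2 of 38 genes. That is 4.08% of the 49 windows of these genes, against 3.65% of all 32851 windows of 300 bases. The antioxidant response element core TGACNNNGC, also read on both strands, was found for 7 genes (Nfe2l2, Srxn1, Gclm, Prdx1, Mgst1, Txnrd1 and Sod1). It was in 14.3% of the same 49 windows, against 12.4% of all windows. In the windows below, capitals mark the match, which is a description of the letters and not evidence of a bound factor.
Txnip, GTAAACA, chr3:96557707-96558006, plus strand: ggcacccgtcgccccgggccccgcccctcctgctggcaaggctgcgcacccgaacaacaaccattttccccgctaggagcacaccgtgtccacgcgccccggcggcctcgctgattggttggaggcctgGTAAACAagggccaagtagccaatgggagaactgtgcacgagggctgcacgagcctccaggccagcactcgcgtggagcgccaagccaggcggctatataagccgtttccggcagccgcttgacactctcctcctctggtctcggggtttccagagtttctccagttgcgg
Selenop, GTAAACA, chr15:3270727-3271026, plus strand: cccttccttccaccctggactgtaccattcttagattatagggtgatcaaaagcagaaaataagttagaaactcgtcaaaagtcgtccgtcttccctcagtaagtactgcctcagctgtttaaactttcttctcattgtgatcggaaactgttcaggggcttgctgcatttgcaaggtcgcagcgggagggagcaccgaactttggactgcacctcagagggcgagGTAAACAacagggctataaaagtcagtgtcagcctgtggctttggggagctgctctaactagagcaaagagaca
Prdx1, TGACNNNGC on the opposite strand, chr4:116685349-116685648, plus strand: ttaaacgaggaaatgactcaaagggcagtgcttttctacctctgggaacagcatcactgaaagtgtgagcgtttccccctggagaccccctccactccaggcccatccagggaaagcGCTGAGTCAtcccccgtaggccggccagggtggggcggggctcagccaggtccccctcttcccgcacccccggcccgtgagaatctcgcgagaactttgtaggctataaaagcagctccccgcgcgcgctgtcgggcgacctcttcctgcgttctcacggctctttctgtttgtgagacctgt
Mgst1, TGACNNNGC on the opposite strand, chr6:138140277-138140576, plus strand: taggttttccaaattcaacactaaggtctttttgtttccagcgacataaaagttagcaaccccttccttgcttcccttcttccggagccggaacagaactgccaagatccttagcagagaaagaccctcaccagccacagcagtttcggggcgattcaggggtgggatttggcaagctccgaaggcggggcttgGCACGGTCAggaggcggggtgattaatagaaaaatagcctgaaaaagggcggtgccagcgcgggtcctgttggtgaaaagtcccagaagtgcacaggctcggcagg
Txnip and Selenop are shown as the only genes of the 38 searched with the forkhead core there, and Mgst1 and Prdx1 as a variable and a steady gene with the antioxidant core.

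The libraries held between 18054322 and 35247472 estimated reads. Srp72 itself was at 45.7 to 110 CPM (counts scaled to library size) in Srp72+/- and at 88.4 to 137 CPM in WT, so the groups overlapped, with a log2 fold change of -0.50 (standard error, SE, 0.32; edgeR, unadjusted p = 0.159, adjusted p = 0.9998). The 16 HSC identity markers summed to 1618, 2623 and 2733 CPM in Srp72+/- 1 to 3, and to 3207, 236, 2607 and 3092 CPM in WT 1 to 4, with WT 2 below every other library for all 16. The 12 neutrophil markers (among them S100a8, Mpo, Elane and Ltf), none of them at 0 in any library, summed to between 1245 and 12803 CPM in Srp72+/- and between 174 and 40846 CPM in WT, again with WT 2 on top. Erythroid markers summed to 7008 CPM in Srp72+/- 1 and 9409 CPM in WT 2, against 213 to 1318 CPM in the other libraries, and B and plasma cell markers to 4429 CPM and 10638 CPM, against 61.5 to 1336 CPM. In these markers WT 2 goes against its LT-HSC label and Srp72+/- 1 lies nearest to it, and the list counts and several fold changes below are also given without WT 2. In bulk RNA, fewer cells of a type and less RNA per cell cannot be told apart.

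No antioxidant gene passed the test between Srp72+/- and WT, and the groups overlapped for every one. Of 42 genes, 0 passed a false discovery rate (FDR) of 0.05 in the edgeR quasi-likelihood test (adjusted p = 0.9998 for each, Benjamini-Hochberg over 20314 genes), where 0.0% of all genes tested passed. At an unadjusted p below 0.05 there were 0 of 42, against 1.8% of all genes, and DESeq2 called 0 of 42 as well, against 0.0443% of all genes. Fitted values were lower in Srp72+/- for 31 genes and higher for 11, with a median log2 fold change of -0.16. Of all genes tested, 50.7% were lower and 49.3% higher, with a median of -0.01. The 4 genes of glutathione synthesis and reduction, the 4 of the NRF2 system, both selenoproteins and both ferritins all had lower fitted values, and 0 of these passed. Without WT 2 this held for the NRF2 system and the selenoproteins, whereas Gsr (0.79), Gclc (0.11) and Ftl1 (0.11) had higher fitted values, and with an offset for transcript length Gclm (0.49), Gss (0.10) and Selenop (0.0038) did. The groups overlapped for all 42 genes, whereas 3.57% of all genes did not overlap (2.08% higher and 1.49% lower in Srp72+/-). Without WT 2 the median was -0.02, with 23 genes lower and 19 higher, and 2 genes, Srxn1 and Prdx2, had an unadjusted p below 0.05, against 4.84% of all genes. The groups then did not overlap for 4 genes, against 10.2% of all genes: Prdx2 was higher in Srp72+/- (4.9% of all genes), and Srxn1, Keap1 and Selenop were lower (5.25%). Without WT 2 and Srp72+/- 1, the unadjusted p was below 0.05 for Foxo4, Srxn1 and Keap1, against 4.03% of all genes, and none passed the FDR. Foxo4, Gpx1, Srxn1, Gclc, Keap1, Selenop and Fth1 were then lower without overlap, against 9.08% of all genes, and Prdx2 higher, against 9.14%. The 95% interval of the fold change stayed within a 2-fold difference either way for 20 of the 42 genes and reached past a 4-fold difference for 6, so moderate differences were not detectable for many of them.

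**Figure D1:**
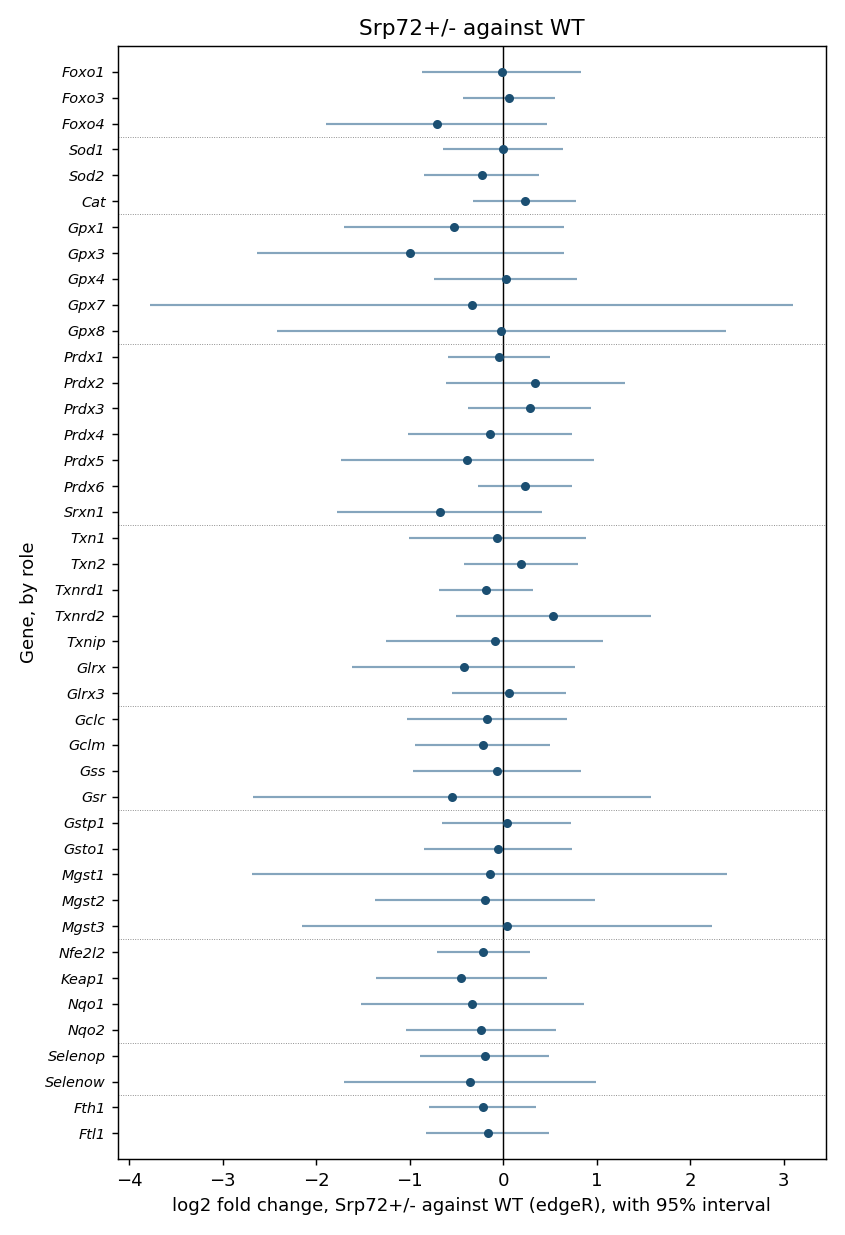
Log2 fold change of each antioxidant gene, Srp72+/- against WT, from edgeR, with its 95% interval; genes run down the page by role. Every interval includes 0, and those of Gpx7, Gpx8, Gsr, Mgst1 and Mgst3 are among the widest.

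The order of abundance, compared per unit of length, was led by ferritin, which stores iron and keeps it from generating radicals. Over protein-coding transcripts of at least 500 bases, Ftl1, the light chain, averaged 292 ± 69.0 TPM (a level corrected for transcript length) in Srp72+/- (SD, n = 3) and 268 ± 50.2 TPM in WT (SD, n = 4). Fth1, the heavy chain with ferroxidase activity, averaged 205 ± 62.6 TPM in Srp72+/- and 207 ± 30.2 TPM in WT. Next came Gpx1, the cytosolic glutathione peroxidase, at 168 ± 78.0 and 189 ± 82.6 TPM in Srp72+/- and WT, and Sod1, the cytosolic superoxide dismutase, at 152 ± 38.6 and 148 ± 33.1 TPM. These 4 genes overlapped with each other in range except for Ftl1 and Sod1, whose lowest and highest values over the 7 libraries were 225 and 371 TPM for Ftl1 and 104 and 194 TPM for Sod1. Prdx5, Txn1 and Prdx1 followed with means over all libraries of 58.3, 49.5 and 45.1 TPM, and Gpx7, Foxo4, Gpx3 and Srxn1 were lowest at 0.98, 1.09, 1.21 and 1.39 TPM. Such levels depend on which transcripts are counted. Gpx4, the peroxidase that repairs lipid peroxides, was at 7.15 TPM over long coding transcripts and at 74.5 TPM over all transcripts, of which 87.5% came from a retained-intron model of 280 bases. For Prdx6 the corresponding values were 3.43 and 61.0 TPM.

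Among the FoxO factors, Foxo3 had the highest level. Foxo3, which mouse stem cells need to stay quiescent (chromosome 10, 42181841 to 42276755 on the minus strand of GRCm38), measured 194, 164 and 135 CPM in Srp72+/- 1 to 3, and 169, 131, 156 and 176 CPM in WT 1 to 4. The spread over all 7 libraries was 1.49-fold, and the log2 fold change was 0.06 (SE 0.22; edgeR, unadjusted p = 0.791). Foxo1 measured 29.4, 37.8 and 35.6 CPM in Srp72+/-, and 39.6, 16.7, 30.4 and 52.2 CPM in WT. WT 2 was 1.76-fold below the lowest of the other libraries, and it was the lowest library on each of the 4 scales tried (CPM scaled by TMM, as used throughout, CPM scaled by RLE, CPM of the library total, and TPM). Foxo4 was low, at 8.74, 4.998 and 4.34 CPM in Srp72+/-, and 8.18, 5.37, 7.87 and 18.0 CPM in WT, where WT 4 was highest. The log2 fold change of Foxo4 was -0.71 (SE 0.52; edgeR, unadjusted p = 0.205), and without WT 4 it was -0.27. In TPM, which also depends on transcript length, Foxo3 lay between 14.31 and 20.6 in Srp72+/- and between 8.23 and 14.29 in WT, just without overlap, as did Prdx3 and Txnrd1, all higher in Srp72+/-, 3 of 42 genes against 4.62% of all genes tested. In CPM of the library total only Prdx3 did so, 1 of 42 genes against 3.51% of all genes. For Txnrd1 the direction depended on the scale, with a log2 fold change of -0.18 in the edgeR fit. Over protein-coding transcripts of at least 500 bases its groups overlapped, at 7.90 to 12.5 TPM in Srp72+/- and 6.29 to 9.22 TPM in WT.

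No gene of the dismutases or catalase passed the test. Sod1 measured 116, 116 and 230.0 CPM in Srp72+/-, and 163, 152, 156 and 148 CPM in WT, so that Srp72+/- 3 alone lay above the WT range. Sod2, the mitochondrial dismutase, measured 34.8, 43.3 and 44.3 CPM in Srp72+/-, and 66.7, 42.2, 35.8 and 47.1 CPM in WT. Cat, which encodes catalase, measured 65.6, 59.4 and 55.8 CPM in Srp72+/-, and 51.6, 42.5, 68.7 and 43.1 CPM in WT. The Srp72+/- values lay inside the WT range for Cat, and the log2 fold changes of Sod1, Sod2 and Cat were -0.01, -0.23 and 0.23 with standard errors of 0.28, 0.27 and 0.24 (edgeR, unadjusted p = 0.985, 0.414 and 0.368).

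No glutathione peroxidase passed the test, and WT 2 stood apart for Gpx1 and Gpx8. Gpx1 (chromosome 9, 108338903 to 108340343, plus strand) measured 276, 143 and 147 CPM in Srp72+/-, and 152, 569.7, 188 and 180.3 CPM in WT. WT 2 was 2.06-fold above Srp72+/- 1, the next highest, and the other 5 libraries lay between 143 and 188 CPM. The log2 fold change of Gpx1 was -0.53 (SE 0.51; edgeR, unadjusted p = 0.331), and without WT 2 it was 0.13. Gpx7 and Gpx8, endoplasmic reticulum peroxidases of the family, were lowest in WT 2, at few reads. Gpx7 had 1, 72 and 111 reads in Srp72+/-, and 31, 0, 25 and 183 in WT, and Gpx8 had 30, 119 and 44 reads in Srp72+/-, and 95, 1, 51 and 73 in WT. WT 2 was under the floor used here for both, 3 reads or 0.191 CPM in that library, and so was Srp72+/- 1 for Gpx7. Taken against that floor, the lowest other library was at least 6.98-fold higher than WT 2 for Gpx8. Gpx3, the secreted plasma enzyme, measured 3.71, 2.63 and 0.55 CPM in Srp72+/-, and 5.83, 6.78, 3.31 and 2.34 CPM in WT, with a log2 fold change of -0.99 (SE 0.72; edgeR, unadjusted p = 0.202). Gpx4 stayed between 12.8 and 24.4 CPM in Srp72+/- and between 12.5 and 19.1 CPM in WT.

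Peroxiredoxins are thiol enzymes that reduce peroxide, most of them with electrons from thioredoxin, and Prdx1 and Prdx6 varied least over the libraries. Prdx1 (cytosol and nucleus) measured 74.4, 71.7 and 115 CPM in Srp72+/-, and 89.9, 78.5, 88.7 and 102 CPM in WT, and Prdx6, which uses glutathione, measured 111, 125 and 168 CPM in Srp72+/-, and 105, 111, 132 and 108 CPM in WT. Prdx5, found in several organelles, ranged much further, with 102, 63.0 and 40.5 CPM in Srp72+/-, and 34.4, 194, 76.1 and 52.8 CPM in WT. Prdx2, which is abundant in red cells, was high in CPM in the pair of libraries with the most erythroid markers. It measured 108, 46.9 and 74.7 CPM in Srp72+/-, and 42.8, 107, 46.7 and 44.5 CPM in WT. Over protein-coding transcripts of at least 500 bases only Srp72+/- 1 stood out for Prdx2, at 31.9 TPM. WT 2 was at 16.1 TPM there, inside the range of the other libraries (9.28 to 17.7 TPM). Without WT 2 the Srp72+/- libraries lay above the WT libraries for Prdx2, with a log2 fold change of 0.78 (SE 0.30; edgeR, unadjusted p = 0.0296 and adjusted p = 0.977). That fit keeps Srp72+/- 1. Without both libraries the log2 fold change of Prdx2 was 0.45 (SE 0.27; edgeR, unadjusted p = 0.141), and without Srp72+/- 1 alone it was -0.0085. Prdx3 (mitochondria) and Prdx4 (endoplasmic reticulum) had log2 fold changes of 0.28 and -0.14. Srxn1, sulfiredoxin, which restores over-oxidised peroxiredoxins, measured 6.99, 7.99 and 5.34 CPM in Srp72+/-, and 14.5, 4.22, 10.4 and 14.2 CPM in WT. Its log2 fold change of -0.68 had 0.48 as its standard error (edgeR, unadjusted p = 0.193), and without WT 2 it was -0.94 (SE 0.36; unadjusted p = 0.0274, adjusted p = 0.977).

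Within the thioredoxin system, the reductant and its inhibitor lay at opposite ends in WT 2. Txn1, cytosolic thioredoxin, measured 93.2, 80.7 and 149 CPM in Srp72+/-, and 73.3, 201, 103 and 72.02 CPM in WT. Txnip, which binds and inhibits thioredoxin (chromosome 3, 96557957 to 96561883, plus strand), measured 349, 342 and 251.4 CPM in Srp72+/-, and 557, 90.3, 309 and 382 CPM in WT. WT 2 was thus 2.78-fold below the lowest other library for Txnip, 1 of 2 genes of the list at least 2-fold below, where 9.17% of all genes tested were. Glrx, glutaredoxin, which removes glutathione from proteins, measured 84.3, 64.9 and 44.7 CPM in Srp72+/-, and 43.5, 185, 64.0 and 54.0 CPM in WT. WT 2 lay 2.20-fold above the next library for Glrx, one of 3 genes with Gpx1 and Gsr that were at least 2-fold above, where 3.92% of all genes were. Txnrd1, the cytosolic thioredoxin reductase, had a narrower spread. It measured 50.9, 40.1 and 49.1 CPM in Srp72+/-, and 60.4, 45.2, 47.2 and 58.9 CPM in WT, and mitochondrial thioredoxin (Txn2) and Glrx3 had log2 fold changes of 0.19 and 0.07. Txnrd2, the mitochondrial reductase, measured 18.2, 6.78 and 6.79 CPM in Srp72+/-, and 7.51, 8.63, 5.52 and 7.51 CPM in WT, so that Srp72+/- 1 alone was high. Its log2 fold change of 0.54 (standard error 0.45) became -0.12 without Srp72+/- 1.

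**Figure D2:**
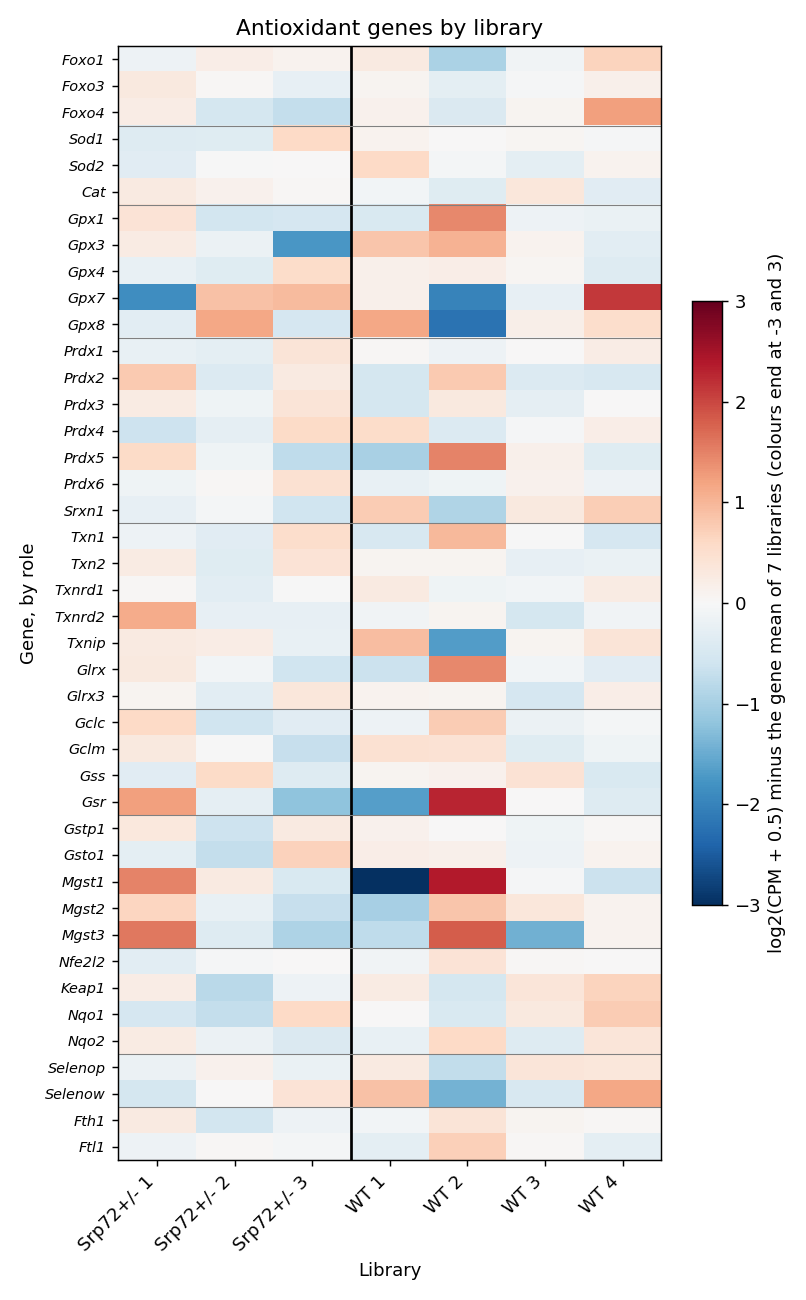
Level of each of the 42 antioxidant genes in each library, as log2(CPM + 0.5) minus the mean of that gene, with Srp72+/- libraries left of the line and WT libraries right of it. WT 2 carries most of the strong colours, with Gsr and Mgst1 high and Txnip, Selenow and Gpx8 low.

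Glutathione is made by glutamate-cysteine ligase and glutathione synthetase and is returned to its reduced form by glutathione reductase. The reductase gene Gsr (chromosome 8, 33652523 to 33698163, plus strand) had a 15.8-fold spread over the libraries. It measured 169, 59.8 and 31.3 CPM in Srp72+/-, and 22.5, 356, 73.4 and 55.0 CPM in WT, with WT 2 and then Srp72+/- 1 on top. The log2 fold change of Gsr was -0.55 (SE 0.93; edgeR, unadjusted p = 0.572), and it was 0.79 without WT 2. In TPM Srp72+/- 1 (40.7) and WT 2 (39.98) were the highest libraries, close to each other. The genes of synthesis had narrower spreads. Gclc, the catalytic subunit of the ligase, measured 69.5, 30.4 and 36.1 CPM in Srp72+/-, and 41.1, 78.0, 40.6 and 44.5 CPM in WT, and its modifier subunit Gclm measured 128, 104 and 65.0 CPM in Srp72+/-, and 143, 142, 80.6 and 95.7 CPM in WT. Gss, the synthetase, lay between 8.31 and 16.6 CPM in Srp72+/- and between 7.82 and 15.1 CPM in WT.

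Among transferases that couple glutathione to lipids and foreign compounds, the microsomal ones were the variable ones. Mgst1 measured 28.9, 12.2 and 7.16 CPM in Srp72+/-, and 0.84, 54.2, 9.78 and 6.29 CPM in WT, a 64.4-fold spread with WT 1 far below the rest. Mgst2 measured 20.1, 10.7 and 7.55 CPM in Srp72+/-, and 6.05, 22.8, 16.1 and 13.5 CPM in WT, and Mgst3 measured 16.8, 3.93 and 2.55 CPM in Srp72+/-, and 2.91, 20.0, 1.63 and 5.71 CPM in WT. All 3 were highest in WT 2 in CPM scaled by TMM, and on all 4 scales only Mgst1 was. The soluble enzymes differed less. Gstp1 measured 27.5, 14.1 and 26.7 CPM in Srp72+/-, and 24.0, 22.3, 20.3 and 22.5 CPM in WT, and Gsto1 measured 32.7, 24.4 and 65.5 CPM in Srp72+/-, and 46.0, 44.96, 35.8 and 43.2 CPM in WT. The copies Gstp2 and Gstp3 held at most 0.159 and 1.47 CPM, and the division of reads between copies is uncertain.

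No gene of the NRF2 system passed the test. Nfe2l2, which encodes NRF2, measured 73.3, 89.0 and 93.1 CPM in Srp72+/-, and 84.7, 123, 94.5 and 92.1 CPM in WT, with a log2 fold change of -0.21 (SE 0.22; edgeR, unadjusted p = 0.356). Keap1, its inhibitor, measured 16.6, 7.90 and 12.9 CPM in Srp72+/-, and 17.0, 9.66, 18.3 and 23.0 CPM in WT. Without WT 2, where the groups did not overlap, the log2 fold change of Keap1 was -0.64, with 0.35 as its standard error, and did not pass the test (edgeR, unadjusted p = 0.103). Nqo1, a quinone reductase and textbook NRF2 target, was between 3.26 and 8.86 CPM in Srp72+/- and between 4.03 and 9.98 CPM in WT, and Nqo2 between 13.0 and 21.2 CPM and between 13.5 and 27.1 CPM.

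Selenoproteins carry selenocysteine, and both genes listed here were lowest in WT 2 on all 4 scales. Selenow, a small thiol oxidoreductase, measured 25.4, 36.9 and 49.1 CPM in Srp72+/-, and 67.8, 13.6, 26.2 and 82.6 CPM in WT, with a 6.10-fold spread. Selenop, the selenium carrier, measured 62.3, 77.7 and 61.3 CPM in Srp72+/-, and 85.7, 41.8, 91.0 and 89.1 CPM in WT. The 3 other WT libraries lay between 85.7 and 91.0 CPM for Selenop, above every Srp72+/- library, and the log2 fold change was -0.20 with all libraries and -0.40 without WT 2 (edgeR, unadjusted p = 0.532 and 0.0832). No ferritin gene passed the test. Fth1 measured 377, 214 and 284 CPM in Srp72+/-, and 295, 412, 331 and 323 CPM in WT, and Ftl1 measured 341, 385 and 365 CPM in Srp72+/-, and 312, 622, 391 and 309.6 CPM in WT. WT 2 was the highest library for both in CPM scaled by TMM or RLE, for Ftl1 alone in CPM of the library total, and for neither in TPM. The pseudogene-like copies Ftl1-ps1 and Ftl2-ps reached 14.3 and 33.1 CPM, so reads may be split among copies.

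**Figure D3:**
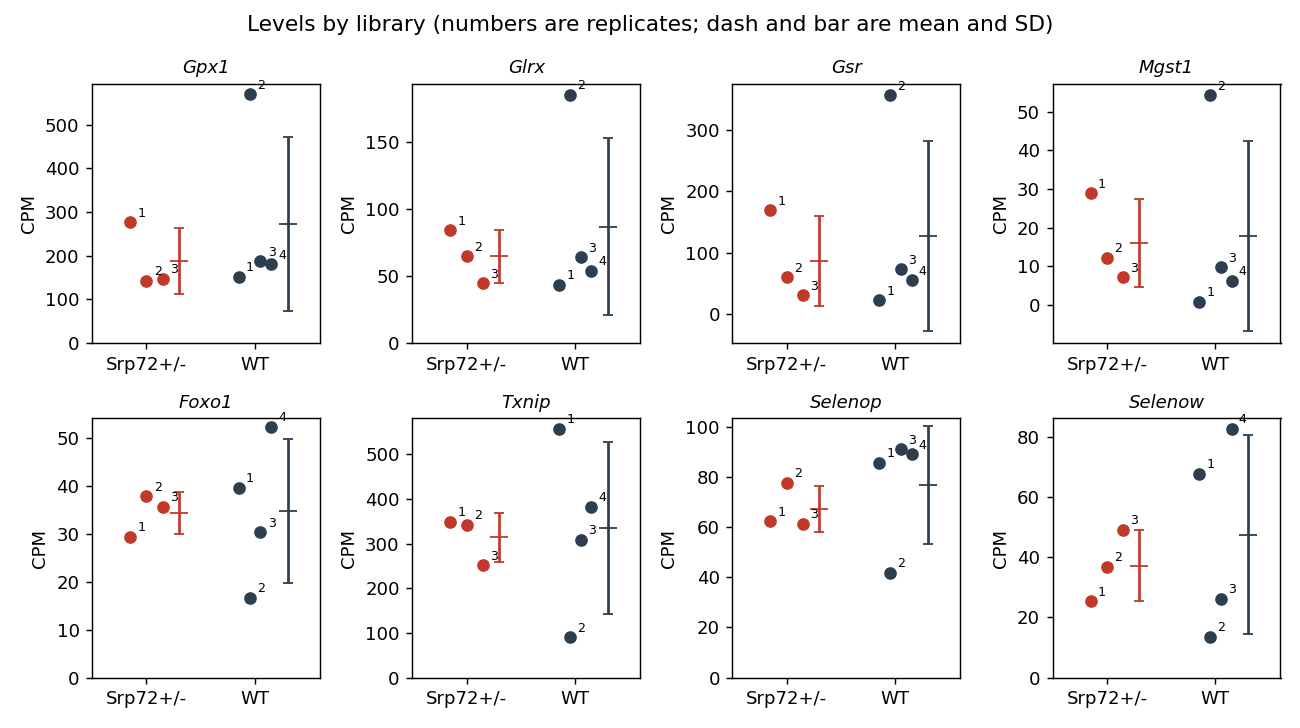
CPM of 8 antioxidant genes in each library, Srp72+/- left and WT right, with replicate numbers, and the mean and SD beside each group. In the upper row WT 2 is the highest library and in the lower row the lowest, while the groups overlap for each gene.

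The position of WT 2 was counted over the whole list. WT 2 was the highest of the 7 libraries for 14 genes, the lowest for 9 and inside the range for 19. It was highest for 22.8% of all genes tested, lowest for 26.6% and outside the others for 49.4%. In CPM of the library total the counts were 8 highest and 16 lowest, and in TPM 6 and 21, so the position of WT 2 depends on the scale for many genes. The shares of all genes were counted only in CPM scaled by TMM. Positions on the other scales, or alike on all 4, therefore cannot be set against all genes. Those placed alike on all 4 scales were Gpx1, Prdx5, Txn1, Glrx and Mgst1 on the high side and Foxo1, Gpx7, Gpx8, Txnip, Selenop and Selenow on the low side. WT 2 and Srp72+/- 1 had the highest erythroid, neutrophil and B cell marker levels. In CPM scaled by TMM they were together the highest pair for 11 of the 42 genes, against 12.3% of all genes. They were the lowest pair for 4 (Foxo1, Gpx7, Prdx4 and Selenow), against 12.6%. These pairs also depend on the scale. In TPM the pair was no longer on top for Txnrd2, Glrx, Gclc, Mgst2 and Fth1, and no longer lowest for Foxo1. The part of other cell types in these differences was not tested.

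The genes were also set against the neutrophil markers over all 7 libraries, as 42 relations. The mean log2(CPM + 1) of the 12 markers was 9.24, 8.04 and 6.001 in Srp72+/- 1 to 3, and 3.35, 10.8, 8.57 and 7.32 in WT 1 to 4. Gsr and Prdx5 had the same order of libraries as the markers in all 7 (Spearman's rho of 1 each, and Pearson's r of 0.930 and 0.928). For rho the unadjusted p was 0.000397, the smallest that 7 libraries allow, and the adjusted p = 0.0672 for each (two-sided exact permutation test, Benjamini-Hochberg over 20314 genes). For r of Gsr and Prdx5 the exact permutation p was 0.00337 and 0.00357, with adjusted p = 0.229 and 0.231, so neither relation passed 0.05. Mgst1, Mgst2 and Glrx had r of 0.960, 0.945 and 0.852 and rho of 0.929, 0.964 and 0.964 (exact permutation, p = 0.00179, 0.000794 and 0.0189 for r, adjusted 0.171, 0.126 and 0.373). Their exact permutation p for rho was 0.00675, 0.00278 and 0.00278 (adjusted 0.174, 0.122 and 0.122). For Mgst2 the relation holds for CPM, where 44.4% of its reads fell on a retained-intron model. In TPM Mgst2 was highest in WT 4 (41.1) and WT 3 (37.7), with WT 2 at 22.4. In all, 5 of 42 genes had rho of at least 0.9, against 2.63% of all genes tested. Prdx4, Selenow and Sod2 ran against the markers, with r of -0.866, -0.819 and -0.811 and rho of -0.893, -0.893 and -0.857 (exact permutation, p = 0.00853, 0.0218 and 0.0365 for r, adjusted 0.295, 0.388 and 0.434). Their exact permutation p for rho was 0.0123, 0.0123 and 0.0238 (adjusted 0.206, 0.206 and 0.271). At an unadjusted exact permutation p below 0.05 for r there were 8 of 42 genes, those just named, against 10.7% of all genes, and 0 of 42 passed the adjustment. For Sod2 the inverse order holds for CPM. In TPM Sod2 was at 9.73 in WT 1, the library lowest in the markers, and at 11.2 to 11.9 in Srp72+/-, with WT 2 lowest at 5.15. Without WT 1 and WT 2, the libraries farthest from the median of the markers, r was 0.933 for Gsr, 0.982 for Prdx5, 0.788 for Mgst1, 0.908 for Mgst2 and 0.969 for Glrx, and -0.933, -0.703 and -0.790 for Prdx4, Selenow and Sod2. The points share scaling and depth within a library, and both genotypes are pooled. With each genotype centred on its own mean, r was 0.937 for Gsr, 0.941 for Prdx5, 0.973 for Mgst1, 0.961 for Mgst2, 0.874 for Glrx, -0.876 for Prdx4, -0.819 for Selenow and -0.846 for Sod2, given without a test. No other marker list was set against the genes. Monocyte and macrophage markers also had WT 2 (mean log2(CPM + 1) of 5.38) and Srp72+/- 1 (3.88) highest and WT 1 (1.41) lowest. So did B and plasma cell markers, at 4.56, 3.88 and 1.61. The relation is thus not shown to be particular to neutrophil markers. The sort removed Gr1+ and Mac1+ cells, and whether the relation reflects remaining mature cells was not tested.

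**Figure D4:**
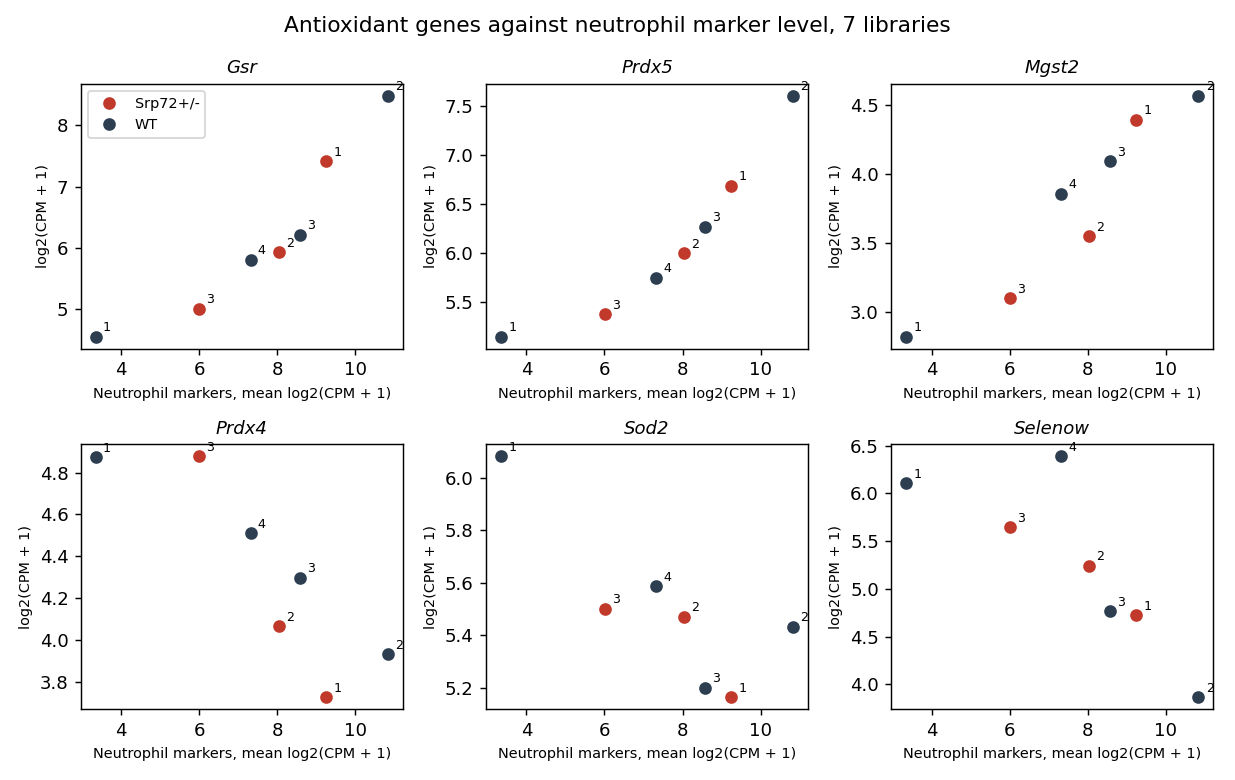
Level of 6 antioxidant genes, as log2(CPM + 1), against the mean log2(CPM + 1) of 12 neutrophil markers in the 7 libraries, Srp72+/- red and WT dark, with replicate numbers. Gsr, Prdx5 and Mgst2 are higher where the markers are higher, with r of 0.930, 0.928 and 0.945, and Prdx4, Sod2 and Selenow are lower there.

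In the other lists of these pathways 0 genes passed the FDR or an unadjusted p of 0.05 in edgeR with all libraries. NADPH oxidase genes make superoxide, and 6 of 7 were highest in WT 2 on each of the 4 scales. Cybb, the catalytic subunit, measured 537, 163 and 31.9 CPM in Srp72+/-, and 4.99, 1449, 232 and 98.5 CPM in WT, the library order of Gsr. Fitted values were lower in Srp72+/- for 6 of the 7 genes with all libraries and higher for 7 of 7 without WT 2. Cyba, the partner of Cybb in the membrane, had a log2 fold change of -0.79 with all libraries and 0.10 without WT 2, and the regulator Rac2 -0.50 and 0.18. The NADPH oxidase genes summed to 1364 CPM in Srp72+/- 1, which the fit without WT 2 keeps, and 3121 CPM in WT 2. The other libraries lay between 475 and 964 CPM.

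Among 17 further NRF2 target and NADPH genes, 13 had lower fitted values in Srp72+/-, against 8 without WT 2. Osgin1 and Idh1 led this list by p, with log2 fold changes of -0.96 and -0.78, which were -1.18 and -0.21 without WT 2. Of 15 FoxO regulators 10 were lower, among them Sgk1, a kinase that phosphorylates FoxO factors, with a log2 fold change of -0.62 (SE 0.57; edgeR, unadjusted p = 0.300). Of 12 other FoxO targets 11 were lower, with a median of -0.39, against 7 without WT 2, with a median of -0.38. Bcl2l11, a pro-apoptotic gene, was at -0.57 (SE 0.35; edgeR, unadjusted p = 0.139), against -0.40 without WT 2. Klf2 was at -0.79 (SE 0.72; edgeR, unadjusted p = 0.300), against -0.91 without WT 2. Its Srp72+/- values, 16.0 to 28.0 CPM, lay inside the WT range of 6.11 to 81.1 CPM, where WT 3 was highest.

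Among 21 other glutathione genes 15 were lower in Srp72+/-, and Gstm1 was the only one whose groups did not overlap. Gstm1, a cytosolic transferase, measured 61.7, 62.2 and 52.6 CPM in Srp72+/-, and 62.6, 157, 98.7 and 76.6 CPM in WT. Its log2 fold change was -0.75 (SE 0.33; edgeR, unadjusted p = 0.0516, adjusted p = 0.9998), and lower values without overlap occurred in 1.49% of all genes. Without WT 2 the fold change of Gstm1 was -0.43 on the log2 scale (edgeR, unadjusted p = 0.103). Gsto2, at 0.03 to 0.36 CPM in Srp72+/- and 0 to 1.01 CPM in WT, was near the floor in several libraries. Of 17 selenoprotein and selenocysteine genes 15 were lower, against 13 without WT 2. Selenok was at -0.41 and Selenot at -0.38, and without WT 2 at -0.36 and -0.05.

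Of 12 iron genes 7 were higher, with a median of 0.03, and without WT 2 the count was 9, with a median of 0.37. Slc11a2, an iron importer, was at 48.7 CPM in Srp72+/- 1 and between 18.9 and 21.7 CPM in the other Srp72+/- libraries, against 11.5 to 26.0 CPM in WT. Its log2 fold change was 0.79 with all libraries and 1.06 without WT 2 (edgeR, unadjusted p = 0.0998 and 0.027, adjusted p = 0.9998 and 0.977), and that of Aco1 was -0.45 and -0.39. Without WT 2, 4 of the iron genes and Gsto2 had an unadjusted p below 0.05, where 4.84% of all genes did, and 0 passed the FDR. The fit without WT 2 keeps Srp72+/- 1. The iron genes summed to 1583 CPM in Srp72+/- 1 and 2056 CPM in WT 2, against 748 to 960 CPM in the other libraries. Values without both libraries are not given for the other pathway lists, and the part of other cell types was not tested.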

How the data were processed

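RNA from sorted LT-HSCs was amplified with the NuGEN Ovation V2 system and made into Illumina libraries, per the labels' protocols. The deposited estimated counts and TPM per transcript were made with Salmon 0.12.0, and the builds named are mm10 and GRCm38.p6, per the submitters' processing notes. For the strand setting and the transcript release, nothing is given in the sources used here, and antisense overlaps and close copies are therefore uncertain. The authors' effective transcript lengths in the same deposited tables were used only for a length offset.

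Here 136176 of 136288 transcripts matched GENCODE M21, and counts were summed per gene and rounded. After filterByExpr (minimum count 10, total 15), libraries were scaled by TMM and tested in edgeR 4.0.16 by quasi-likelihood (R 4.3.3, robust, no covariate), adjusted over all genes tested. DESeq2 1.42.0 was an alternative. The floor was 3 counts, which covers counting error only. Amplification without molecular identifiers can enlarge differences between libraries.

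All 42 genes were described by role. Values in every library were given for the 6 smallest p, for groups without overlap, for WT 2 at least 2-fold outside the other libraries and for the most abundant gene of each role, and for others where a role needed them. From each other pathway list the 2 genes with the smallest p were named, except for 1 that is not reported here, and Cybb was added after its values were seen. The members and lists were chosen with earlier results of these data known. The scales without TMM, the coding-transcript TPM the relation with neutrophil markers and the values of other pathway genes without WT 2 were chosen after seeing the data.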

Additional observations from a re-analysis of the deposited data

Results flagged for a closer look

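In 4 of the 42 antioxidant genes 1 of the 4 WT libraries lay far from the others by Dixon's ratio on log2(CPM + 0.1), each time WT 2. Gpx1 was at 569.7 CPM there, Prdx2 at 107 CPM and Gclc at 78.0 CPM, all above the other WT libraries, and Selenop was at 41.8 CPM, below them. Chance flags about 1 in 20 groups, and 8.57% of all genes tested had such a library, against 9.52% of these genes.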

How the results depend on the processing

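The count of antioxidant genes past the FDR was 0 under every alternative run, with 2 genes at an unadjusted p below 0.05 without WT 2 and 3 without WT 2 and Srp72+/- 1. Over all genes edgeR called 0, DESeq2 called 9, and leaving out 1 library gave between 0 and 1 (without WT 4). The median log2 fold change of the 42 genes lay between -0.212 and -0.0209 when 1 library was left out, nearest 0 without WT 2. Genes whose groups did not overlap numbered between 0 and 4 without 1 library (4 without WT 2, Srp72+/- 1 or Srp72+/- 3, where 10.15%, 9.82% and 10.96% of all genes did not), 3 in TPM and 1 in CPM of the library total (Prdx3). Without a filter on low counts the median over all genes was 0.13, against -0.01. The fitted sign turned in at least 1 fit without 1 library for 27 of the 42 genes, of which 0 passed the test. With 1 library left out, Mgst1 ranged between -0.91 and 1.51, Mgst3 between -1.25 and 1.18, Gpx7 between -0.78 and 1.15, Prdx5 between -0.82 and 0.34, Gpx1 ranged between -0.94 and 0.13, Gpx8 between -0.94 and 0.50, Txnrd2 between -0.12 and 0.77, Txnip between -0.40 and 0.27, Glrx between -0.69 and 0.27 and Gsr between -1.51 and 0.79. Without WT 2 and Srp72+/- 1, Txnrd2 was at -0.0113 and Glrx at 0.0247. With the replicate number as a block, Gpx8 was at 0.22, Txnip at 0.28 and the median at -0.13, with 0 genes called and 139 at an unadjusted p below 0.05, against 365 without the block. Replicate 4 exists only in WT, so WT 4 adds nothing to the genotype difference in the block fit. The counts of 139 and 365 thus rest on unlike sets of libraries. The labels do not say whether same-numbered libraries are paired. Deviations of same-numbered libraries from their group means correlated at -0.316, -0.162 and 0.002, and so few libraries cannot decide whether they are paired. The cause of these shifts was not tested. In WT 2, Gpx7 with 0 reads and Gpx8 with 1 read were under the floor of 3 reads, where a lower level is not detectable.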
